A study of Homo sapiens with 8 samples.

Results

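The genes described here are NFE2L2, which encodes the transcription factor NRF2, KEAP1, its inhibitor, and 8 antioxidant genes known as NRF2 targets: NQO1, HMOX1, PRDX1, TXN, TXNRD1, SRXN1, GCLM and GCLC. They are 10 of the 24351 genes obtained by summing the transcripts of the deposited table, and each was measured in all 8 libraries. The set was chosen on measured values, namely the levels in the libraries labelled knockdown against both controls of their cell line. Those levels are therefore given as a description with no test. All 10 genes passed the filter on low values used for the fits, as did 14905 genes in all.

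RNA was sequenced from H929 and ARP1, a pair of established human multiple myeloma lines, that is, lines from a cancer of plasma cells. Per the labels, each line has a library for CHEK1 overexpression, a library for CHEK1 knockdown, a control of overexpression and a control of knockdown. No treatment, time point or dose is given, and the vector, the knockdown reagent and the number of clones behind a library are not stated in those labels. A genotype therefore has n = 2 libraries, 1 in each line, and no line alone has a replicate. CHEK1 encodes CHK1, a kinase of the DNA damage checkpoint.

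NRF2 is made continuously and is held at a low level by KEAP1, an adaptor that presents it to a CUL3 ubiquitin ligase. Oxidants and electrophiles modify cysteines of KEAP1, and NRF2 then escapes degradation, enters the nucleus and binds antioxidant response elements together with a small MAF protein. NRF2 is thus controlled largely as a protein, so the mRNA level of NFE2L2 and the level of its targets are separate measurements.

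The core of the antioxidant response element is TGACNNNGC. This core was searched on both strands of the RefSeq promoter windows (250 bases before to 50 after a gene start, GRCh38.p14), and the matches upstream of a start are shown because they mark where NRF2 could be looked for in these genes. The table of windows held 8 of the 10 genes, HMOX1 and PRDX1 being the others. TXNRD1, GCLM and KEAP1 had a match. NFE2L2, NQO1, TXN, SRXN1 and GCLC had none, which says only that these letters are not in their windows. The core was present in 13.3% of all 35116 windows, and in at least 1 window of 16.1% of 27305 genes. It contains the start of AP-1 type elements, so a match is not particular to NRF2. In the sequences below, written 5′ to 3′ along the gene, the capitals mark the core, and GC at the front of the capitals means that it reads on the opposite strand.
TXNRD1, upstream start, chr12:104215670-104215698, plus strand: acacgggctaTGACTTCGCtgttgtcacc
TXNRD1, downstream start, chr12:104286920-104286948, plus strand: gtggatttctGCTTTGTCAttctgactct
GCLM, chr1:93909446-93909474, minus strand: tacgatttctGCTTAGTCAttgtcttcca
KEAP1, distal match, chr19:10502807-10502835, minus strand: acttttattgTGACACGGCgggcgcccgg
KEAP1, proximal match, chr19:10502784-10502812, minus strand: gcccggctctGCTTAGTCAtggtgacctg
The printed cores of TXNRD1 ended 91 bases before the upstream start and 94 bases before the downstream start. That of GCLM ended 26 bases before the start, and those of KEAP1 46 and 23 bases before the downstream of its starts. These are RefSeq starts, and both main KEAP1 transcripts begin upstream of the printed KEAP1 cores. GCLM-204, with 37.8% of the summed FPKM of GCLM, begins 26 bases upstream of the RefSeq start, at the last base of the printed core. A further core of TXNRD1, which reaches into its upstream start, is not shown. The sites of GCLM and proximal KEAP1 read the same 9 bases, TGACTAAGC, on the opposite strand.

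The 8 libraries had a summed FPKM (a level that divides a transcript's fragments by its length and by the size of the library) of 631871 to 693299, and their depth in reads is unknown. CHEK1 itself stood at 107 FPKM in the overexpression library and 84.8 in the library labelled knockdown of H929, against 81.55 in the control of overexpression and 80.7 in the control of knockdown. ARP1 had 114 and 51.6 FPKM in the corresponding libraries, against 78.15 and 61.0 in the controls. CHEK1 was thus lower in the library labelled knockdown of ARP1 than in both controls, and not in that of H929, which goes against its label. All 6 plasma cell markers examined were present, with a summed level of 1248 to 2431 FPKM. Markers of T and NK cells summed to 0.379 to 14.2 FPKM, with the highest sum in the overexpression library of H929. CD3D and NKG7 were at 0 in all libraries, CD3E reached 0.673 FPKM and GNLY reached 14.2 FPKM. Myeloid markers summed to 0.738 to 2.48 FPKM, stromal and epithelial markers to 1.42 to 17.1, and erythroid markers to 0 to 1.91. In bulk RNA, fewer cells of a type and less RNA per cell cannot be told apart.

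In H929, the library labelled knockdown was below both controls of its line for SRXN1 and TXNRD1 alone of the 8 target genes, and in ARP1 for all 8. NFE2L2 was above both controls in both lines. These are the values on which the genes were chosen, and the level of each gene is given next by role, starting with the regulators.

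NFE2L2 (ENSG00000116044, chr2:177227595-177392697, minus strand) stood in H929 at 45.2 FPKM in the overexpression library and 50.4 in the library labelled knockdown, against 35.9 in the control of overexpression and 39.2 in the control of knockdown. The corresponding ARP1 levels were 39.2 and 47.8 FPKM, against 39.3 and 34.8 in the controls. The library labelled knockdown held the highest level of each line, 1.29 and 1.40 times the controls of knockdown and of overexpression in H929, and 1.37 and 1.22 times those in ARP1. NFE2L2 overlaps AGPS on the opposite strand, which reached 57.6 FPKM, and no source used here says whether reads were counted by strand, so its level is uncertain.

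KEAP1 (ENSG00000079999, chr19:10486120-10503741, minus strand), the adaptor that marks NRF2 for degradation, stood in H929 at 36.65 FPKM with overexpression and 40.45 in the library labelled knockdown, against 42.2 in the control of overexpression and 38.1 in the control of knockdown. For ARP1 the values were 53.9 and 38.5 FPKM, against 62.0 and 50.8 in the controls. In H929 the library labelled knockdown lay between the controls, and in ARP1 below both.

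Among the targets, NQO1 (ENSG00000181019, chr16:69706996-69726951, minus strand), which reduces quinones, stood in H929 at 23.0 FPKM with overexpression and 32.1 in the library labelled knockdown, against 25.6 in the control of overexpression and 48.2 in the control of knockdown. Levels in ARP1 were 21.1 and 12.4 FPKM, against 32.9 and 46.9 in the controls. The overexpression library was below both controls in each line. The library labelled knockdown was below both only in ARP1, at 0.264 times the control of knockdown and 0.377 times the control of overexpression. An antisense gene, AC092115.2, overlaps NQO1 and reached 5.29 FPKM.

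HMOX1 (ENSG00000100292, chr22:35380361-35394214, plus strand), the inducible haem oxygenase, stood in H929 at 16.4 FPKM with overexpression and 22.4 in the library labelled knockdown, against 18.9 in the control of overexpression and 39.6 in the control of knockdown. The ARP1 libraries held 8.17 and 4.40 FPKM, against 10.7 and 14.3 in the controls. Its order over the 4 libraries was the same as that of NQO1 in each line: the overexpression library lowest and the control of knockdown highest in H929, and the library labelled knockdown lowest and the control of knockdown highest in ARP1.

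**Figure D1:**
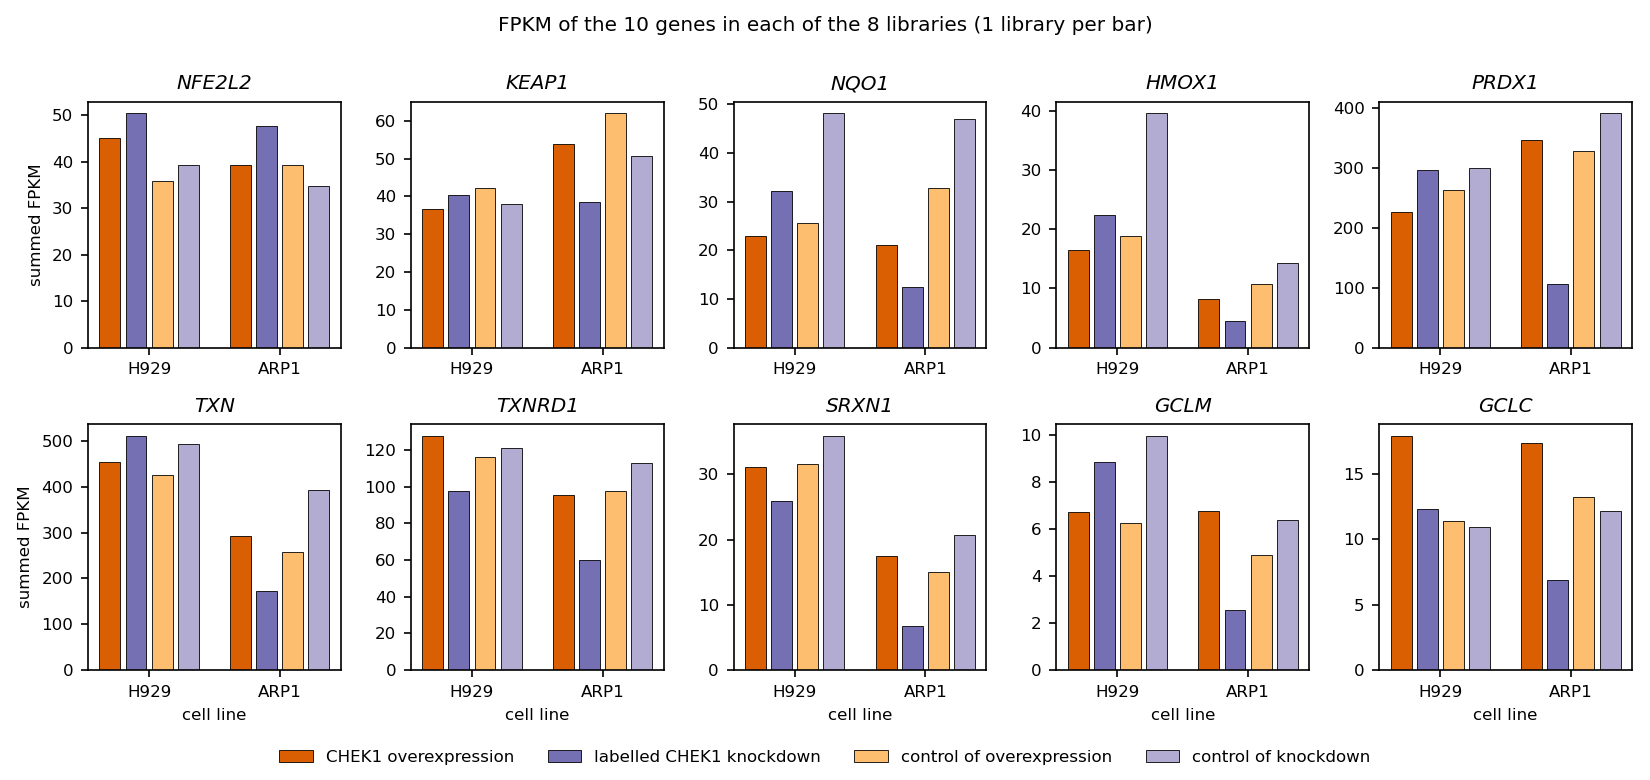
Summed FPKM (vertical axis, linear from 0, a scale per panel) of the 10 genes in the 8 libraries, with H929 at the left and ARP1 at the right of each panel and 1 library per bar, so there are no error bars. In H929 the bar of the library labelled knockdown is the lowest of the 4 for TXNRD1 and SRXN1 among the targets, and in ARP1 for each of the 8, for example 107 FPKM for PRDX1.

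PRDX1 (ENSG00000117450, chr1:45511036-45523047, minus strand) is a peroxiredoxin that breaks down hydrogen peroxide with electrons from thioredoxin. It stood in H929 at 227 FPKM with overexpression and 295 in the library labelled knockdown, against 263 in the control of overexpression and 300.2 in the control of knockdown. In ARP1 the levels were 346 and 107 FPKM, against 327 and 391 in the controls. The library labelled knockdown of ARP1 lay at 0.273 times the control of knockdown and 0.327 times the control of overexpression, and the other 7 libraries lay between 227 and 391 FPKM.

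TXN (ENSG00000136810, chr9:110243811-110256640, minus strand) is thioredoxin itself. Its level in H929 was 455 FPKM with overexpression and 511 in the library labelled knockdown, against 426 in the control of overexpression and 493 in the control of knockdown. In ARP1 it was 293 and 172 FPKM, against 258 and 392 in the controls. Among the 4 libraries, the one labelled knockdown was the highest in H929 and the lowest in ARP1.

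TXNRD1 (ENSG00000198431, chr12:104215779-104350305, plus strand), the reductase that returns electrons from NADPH to thioredoxin, stood in H929 at 127.6 FPKM with overexpression and 97.5 in the library labelled knockdown, against 116 in the control of overexpression and 121 in the control of knockdown. ARP1 held 95.3 and 59.8 FPKM, against 97.7 and 113 in the controls. The library labelled knockdown was the lowest of the 4 in both lines, at 0.807 and 0.840 times the controls of knockdown and of overexpression in H929 and 0.531 and 0.612 times those in ARP1.

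SRXN1 (ENSG00000271303, chr20:646615-653370, minus strand), sulfiredoxin, repairs overoxidised peroxiredoxins. Its level in H929 was 31.1 FPKM with overexpression and 25.9 in the library labelled knockdown, against 31.6 in the control of overexpression and 35.9 in the control of knockdown. In ARP1 it was 17.45 and 6.78 FPKM, against 15.05 and 20.8 in the controls. Again the lowest of the 4 in both lines was the library labelled knockdown.

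The remaining pair encodes glutamate-cysteine ligase, the enzyme that starts glutathione synthesis. GCLM (ENSG00000023909, chr1:93885205-93909456, minus strand), its modifier subunit, stood in H929 at 6.73 FPKM with overexpression and 8.86 in the library labelled knockdown, against 6.26 in the control of overexpression and 9.98 in the control of knockdown. Values in ARP1 were 6.79 and 2.57 FPKM, against 4.92 and 6.39 in the controls. GCLM had the lowest level per length of the 10 genes in every library, and the library labelled knockdown lay between the controls in H929 and below both in ARP1.

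GCLC (ENSG00000001084, chr6:53497341-53616970, minus strand), the catalytic subunit, stood in H929 at 17.9 FPKM with overexpression and 12.3 in the library labelled knockdown, against 11.4 in the control of overexpression and 10.9 in the control of knockdown. The levels of ARP1 were 17.4 and 6.90 FPKM, against 13.2 and 12.1 in the controls. The overexpression library was the highest of the 4 in both lines. The library labelled knockdown was above both controls in H929 and below both in ARP1.

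Set side by side on the log2(FPKM + 1) scale, the libraries labelled knockdown of the lines differed in how far the targets lay from the controls. In H929 the median difference from the mean of both controls was -0.03 over the 8 targets, against 0.01 over all genes kept by the filter. In ARP1 it was -1.08 over the 8 targets, against -0.02 over all genes. PRDX1 had a difference of 0.07 in H929 and, in ARP1, the largest of the 10 genes, -1.73. NQO1 had -0.13 in H929 and -1.59 in ARP1, HMOX1 -0.28 in H929 and -1.31 in ARP1, and SRXN1 -0.37 in H929 and -1.26 in ARP1.

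**Figure D2:**
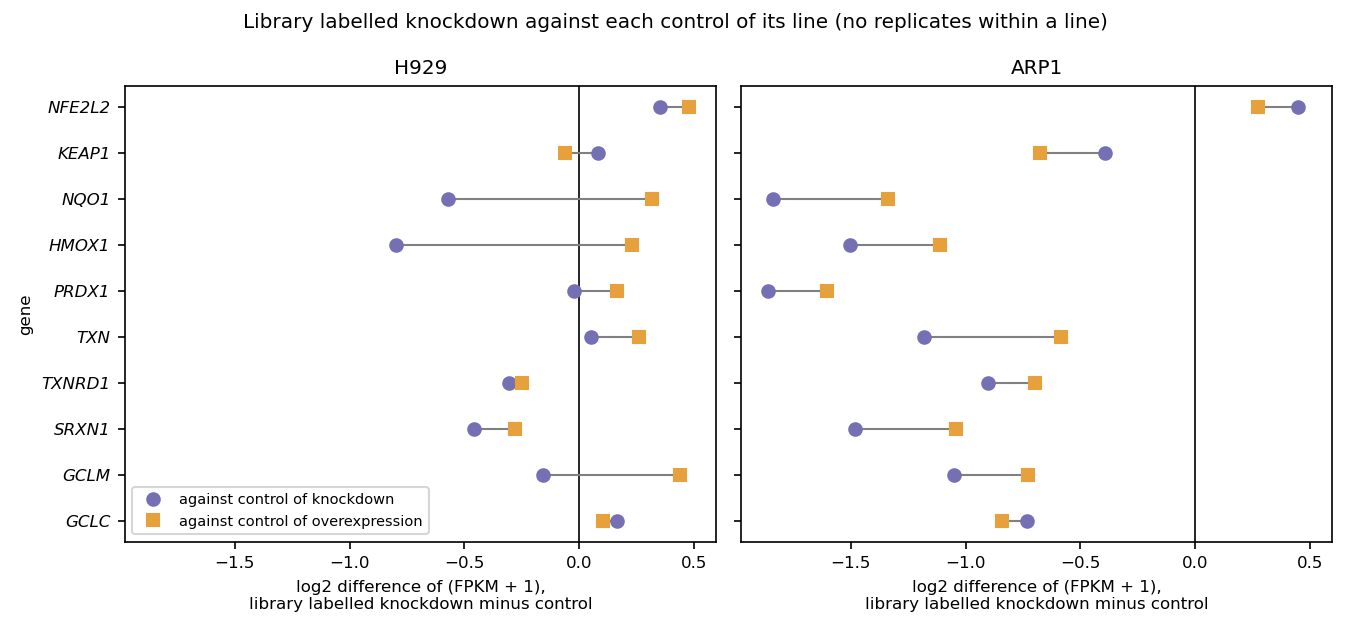
Log2 difference of FPKM + 1 (horizontal axis) between the library labelled knockdown and the control of knockdown (circles) or the control of overexpression (squares) of the same line, for H929 in the left panel and ARP1 in the right panel, with 1 library on each side of a difference. In H929 the marks straddle 0 for NQO1, HMOX1, PRDX1, GCLM and KEAP1, and in ARP1 both lie left of 0 for the 8 targets and KEAP1.

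As counts, the library labelled knockdown of H929 was below both controls for 2 of the 10 genes, where 29.1% of all genes were. In ARP1 it was for 8 of the 8 targets, or 9 of the 10 genes with KEAP1, where 39.4% of all genes were. At a difference of 1.5-fold or more below both controls on the FPKM + 1 scale, H929 had 0 (1.82% of all genes) and ARP1 had 7 of the 8 targets (7.21% of all genes), TXN being just short against the control of overexpression. None of the 10 genes was 1.5-fold or more above both controls, in H929 (2.42% of all genes) or in ARP1 (7.77% of all genes). Below both controls in both lines were 2 of the 10 genes, TXNRD1 and SRXN1 (14.1% of all genes), and above both in both lines was 1, NFE2L2 (15.0% of all genes). The genes were chosen on this contrast, so nothing is read from these counts.

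The controls themselves were apart for some of the targets. In H929, NQO1, HMOX1 and GCLM were 1.5-fold or more apart between the controls, 3 of the 10 genes where 13.7% of all genes were. The control of knockdown held 1.88 times the FPKM of the control of overexpression for NQO1, 2.09 times for HMOX1 and 1.59 times for GCLM. In ARP1, TXN was 1.5-fold or more apart, with 1.52 times the FPKM in the control of knockdown, 1 of the 10 genes where 16.2% of all genes were. For these genes in H929 the direction of the library labelled knockdown depended on the control: NQO1 differed by -0.57 (log2) from the control of knockdown and by 0.32 from the control of overexpression, HMOX1 by -0.80 and 0.23, and GCLM by -0.16 and 0.44. In ARP1 the 8 targets were below the control of knockdown by a median of -1.33 and below the control of overexpression by a median of -0.94.

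CHEK1 overexpression against its control was a contrast that the choice of the genes did not use, although it shares control libraries with the contrast that it did use. None of the 10 genes was called in limma, with 1 of 14905 genes called (0.00671%) at an adjusted p under 0.05. An unadjusted p under 0.05 was found for 663 genes and none of the 10. GCLC came nearest, with a log2 fold change of 0.49 ± 0.25 (SE, n = 2 lines) and a limma adjusted p of 0.994 (unadjusted p = 0.0915). Its overexpression library held 1.53 times the FPKM + 1 of the control of overexpression in H929 and 1.3 times in ARP1. The log2 fold change of GCLC was 0.285 to 0.70 when each library was left out, and 0.29 with its main transcript alone. The standard errors draw on the spread over all 8 libraries, including those labelled knockdown on which the genes were chosen. With the 4 libraries of the contrast alone they were smaller for each of the 10 genes. They were then 0.13 for GCLC (limma adjusted p = 0.486), 0.15 for NQO1 and 0.11 for PRDX1. NQO1 had a log2 fold change of -0.38 ± 0.36 (limma adjusted p = 0.994) and HMOX1 of -0.27 ± 0.32 (limma adjusted p = 0.994), both lower in each line.

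The other 7 genes had fold changes between -0.20 for KEAP1 and 0.24 for GCLM, with standard errors of 0.14 for NFE2L2 to 0.46 for PRDX1. The median over the 8 targets was 0.07, against -0.01 over all genes, and 5 of the 8 targets were above 0. Below both controls in both overexpression libraries were NQO1 and HMOX1, 2 of the 10 genes where 16.5% of all genes were. Above both in both lines was GCLC, 1 of the 10 where 14.7% of all genes were.

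**Figure D3:**
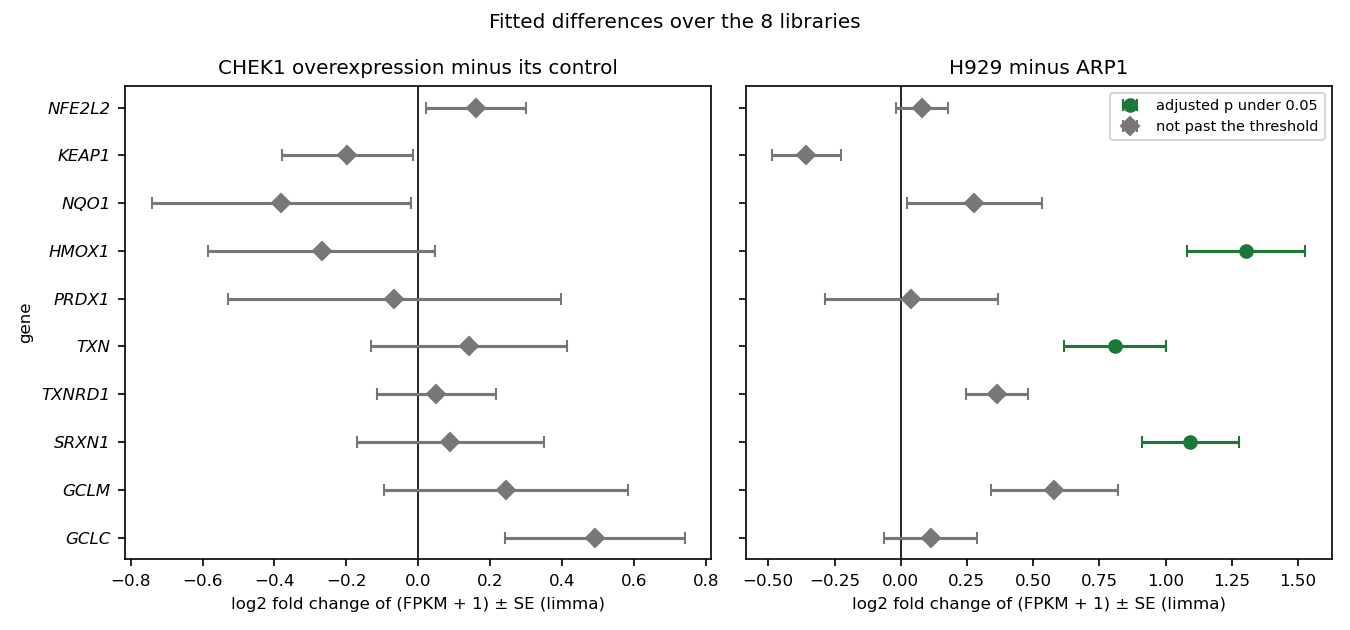
Log2 fold change of FPKM + 1 with its standard error (limma, 8 libraries) for CHEK1 overexpression minus its control in the left panel and H929 minus ARP1 in the right panel. In the left panel no gene passes an adjusted p of 0.05, and in the right panel HMOX1, SRXN1 and TXN (circles) do, with 1.31, 1.09 and 0.81.

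The lines differed in the level of 3 of the targets, where the 4 libraries of a line are its 4 genotypes and not repeats of the same state. HMOX1 averaged 24.3 ± 10.5 FPKM in H929 and 9.38 ± 4.17 FPKM in ARP1 (SD, n = 4 libraries each), a log2 fold change of 1.31 ± 0.22 (limma adjusted p = 0.00842). SRXN1 averaged 31.1 ± 4.11 FPKM in H929 and 15.0 ± 5.97 FPKM in ARP1, a log2 fold change of 1.09 ± 0.18 (limma adjusted p = 0.00797). TXN averaged 471 ± 38.2 FPKM in H929 and 279 ± 91.1 FPKM in ARP1, a log2 fold change of 0.81 ± 0.19 (limma adjusted p = 0.0239). For each of the 3 genes the H929 library was the higher in 4 of 4 pairs of the same genotype, and the lowest H929 library lay above the highest ARP1 library. The share of all genes with such a separation was not counted, so nothing is read from it.

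These 3 of the 10 genes were called higher in H929, as were 13.4% of all genes, and none was called lower, as were 13.7% of all genes. In all, 4035 genes were called by limma and 6120 had an unadjusted p under 0.05, among them 6 of the 10 genes. The other 3 of those were TXNRD1 (0.36 ± 0.12, limma adjusted p = 0.0587), GCLM (0.58 ± 0.24, limma adjusted p = 0.117) and KEAP1 (-0.36 ± 0.13, limma adjusted p = 0.0834), the last with a lower level in H929. NQO1 (0.28 ± 0.25), GCLC (0.11 ± 0.18), NFE2L2 (0.08 ± 0.10) and PRDX1 (0.04 ± 0.33) did not pass either threshold. The median over the 8 targets was 0.47, with all 8 above 0, against a median of 0.00 over all genes. The libraries labelled knockdown, on which the genes were chosen, are part of these values, and without either of them 5 of the 8 targets were above 0, NQO1 (-0.065), PRDX1 (-0.43) and GCLC (-0.10) being below.

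The low library labelled knockdown of ARP1 is part of this comparison, which pairs it with that of H929, so leaving out either takes that genotype out of the fit. Without the ARP1 library the log2 fold changes were 1.04 for HMOX1, 0.86 for SRXN1 and 0.56 for TXN, and limma still called them (adjusted p = 0.00757, 0.00483 and 0.0129). Without either library labelled knockdown PRDX1 was lower in H929, with a log2 fold change of -0.43 (limma adjusted p = 0.0182), as was KEAP1, with -0.50 (limma adjusted p = 0.011), and neither was called with all 8 libraries. The call of TXN was lost when any of the 4 libraries of overexpression or its control was left out (limma adjusted p = 0.0609 to 0.0815) and with no filter on low values (limma adjusted p = 0.0746).

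In levels per length, TXN and PRDX1 led the 10 genes and TXNRD1 came next. In H929 the order by mean FPKM was TXN (471 ± 38.2), PRDX1 (271 ± 34.0), TXNRD1 (116 ± 12.9), NFE2L2 (42.7 ± 6.43), KEAP1 (39.3 ± 2.46), NQO1 (32.2 ± 11.3), SRXN1 (31.1 ± 4.11), HMOX1 (24.3 ± 10.5), GCLC (13.1 ± 3.23) and GCLM (7.96 ± 1.76), each as mean ± SD over 4 libraries. The neighbours from NFE2L2 to HMOX1 in that order lay within their spread of each other. In ARP1 PRDX1 (293 ± 127) and TXN (279 ± 91.1) lay within their spread. KEAP1 (51.3 ± 9.78) had a higher mean there than NFE2L2 (40.3 ± 5.42), with spreads that overlapped. In the library labelled knockdown of ARP1 the order was the reverse, with KEAP1 at 38.5 FPKM and NFE2L2 at 47.8.

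The table lists the genes as transcripts, and the transcript that carried a gene's level differed in how well it matched the sum. HMOX1, SRXN1, PRDX1 and TXN each had 1 transcript with over 99% of the summed FPKM, so their sums rest on 1 model. These were HMOX1-201 and SRXN1-201 with 100%, TXN-202 with 99.9% and PRDX1-202 with 99.3%. The higher level of NFE2L2 in the libraries labelled knockdown was not in its main transcript, NFE2L2-202, which carried 53.4% of the sum. NFE2L2-202 stood in H929 at 29.02 FPKM with overexpression and 19.8 in the library labelled knockdown, against 24.2 in the control of overexpression and 21.0 in the control of knockdown. In ARP1 the values were 21.4 and 20.4 FPKM, against 18.6 and 22.9 in the controls. Over both lines its difference from the mean of the controls was -0.10 (log2), against 0.39 for the sum.

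A shorter transcript, NFE2L2-213, singled out after its values were seen, carried 5.5% of the sum. It was listed at 7.61 FPKM in the library labelled knockdown of H929 and 5.47 in that of ARP1. The controls of knockdown had 1.02 FPKM in H929 and 2.66 in ARP1, and the control of overexpression had 1.43 FPKM in ARP1. It was listed at or near 0 in the control of overexpression of H929 and in both overexpression libraries. NFE2L2-213 is 942 bases long and starts 50210 bases upstream of the nearest RefSeq start of NFE2L2, inside the stretch of chromosome 2 that the summed gene model spans. It was not the only transcript to add to the sum. NFE2L2-201, with 15.3% of the sum, stood at 8.94 FPKM in the library labelled knockdown of H929. The control of overexpression had 5.15 FPKM there and the control of knockdown 7.11. NFE2L2-208, with 7.5%, was also above both controls in H929, at 3.515 FPKM. In ARP1 the library labelled knockdown lay between the controls for NFE2L2-201 (6.07 FPKM) and NFE2L2-208 (4.44 FPKM). In the library labelled knockdown, NFE2L2-204 was above both controls in each line, at 3.28 FPKM in H929 and 4.04 in ARP1. NFE2L2-207 had 3.39 FPKM in that of H929, NFE2L2-211 had 2.98 in that of ARP1, and both were near 0 elsewhere. NFE2L2-209 was below both controls in H929 and between them in ARP1.

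**Figure D4:**
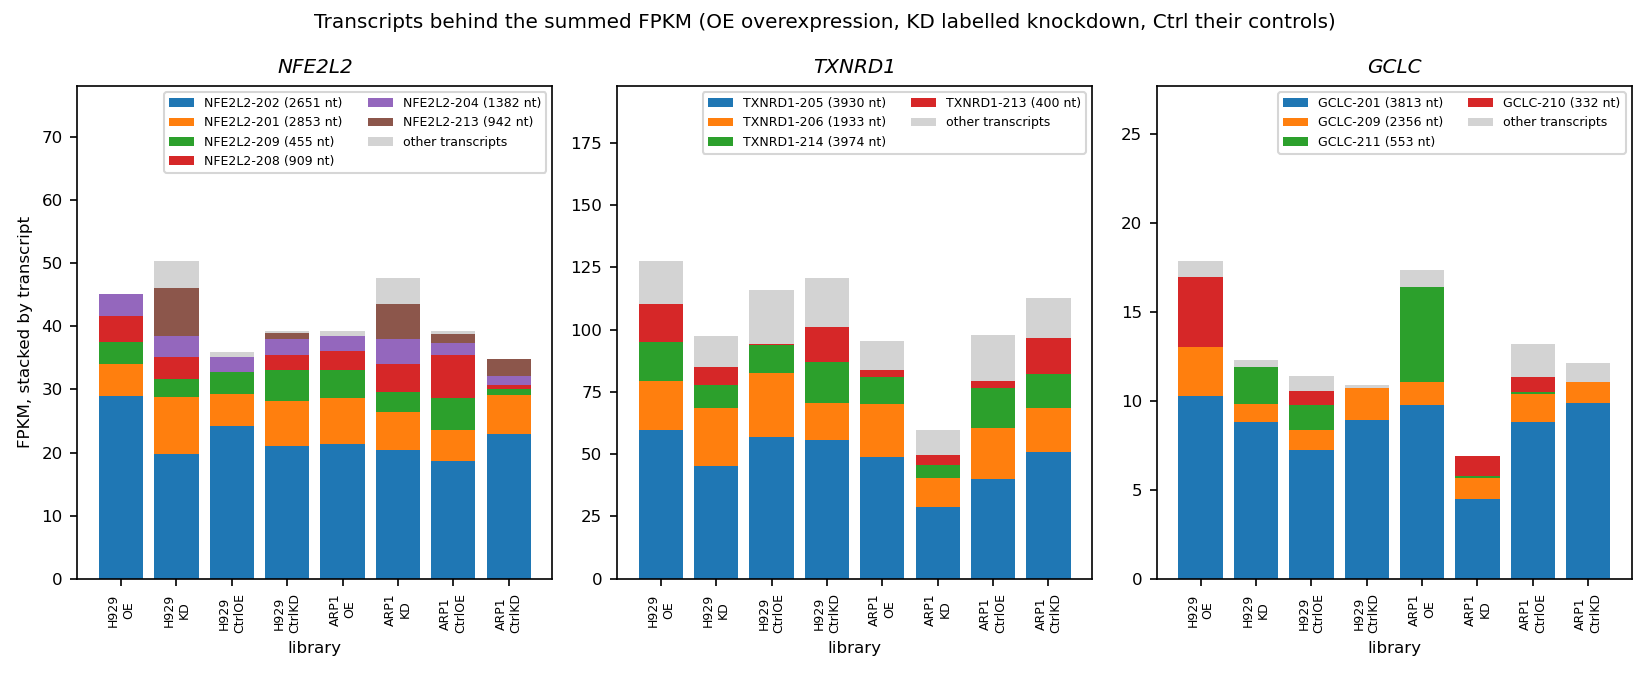
FPKM per transcript (vertical axis, linear from 0) stacked to the summed FPKM of NFE2L2, TXNRD1 and GCLC in each of the 8 libraries (OE overexpression, KD labelled knockdown, Ctrl their controls). Transcripts with at least 5% of a gene's sum have a colour: NFE2L2-213 reaches 7.61 and 5.47 FPKM in the libraries labelled knockdown, and short transcripts add 3.96 and 5.36 FPKM to GCLC in the overexpression libraries.

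TXNRD1 had 19 listed transcripts, of which TXNRD1-205, TXNRD1-206 and TXNRD1-214 carried 46.7%, 18.7% and 11.9% of the sum. All 3 start at most 350 bases from the downstream RefSeq start, the one whose window holds the core GCTTTGTCA printed above. TXNRD1-205 and TXNRD1-214 start upstream of that core, so it lies within the span of both and not before their starts, and TXNRD1-206 starts downstream of it. The TXNRD1 transcripts with at least 4% of the sum all start nearer to it than to the upstream start. TXNRD1-205, the main one, stood in H929 at 59.8 FPKM with overexpression and 45.2 in the library labelled knockdown, against 56.9 in the control of overexpression and 55.6 in the control of knockdown. The same libraries of ARP1 had 48.9 and 28.7 FPKM, against 40.1 and 50.9 in the controls. As for the sum, the library labelled knockdown was the lowest of the 4 in both lines.

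For GCLC, the overexpression libraries stood out in the sum but not evenly in its transcripts. GCLC-201, with 66.8% of the sum, stood in H929 at 10.3 FPKM with overexpression and 8.79 in the library labelled knockdown, against 7.25 in the control of overexpression and 8.89 in the control of knockdown. In ARP1 GCLC-201 had 9.75 and 4.49 FPKM, against 8.83 and 9.86 in the controls, so overexpression was not above both. Short models made up much of the remainder: GCLC-210, of 332 bases, had 3.96 FPKM in the overexpression library of H929, and GCLC-211, of 553 bases, had 5.36 FPKM in that of ARP1. TXNRD1-213, another short model of 400 bases, ranged from 0.711 to 15.1 FPKM over the 8 libraries.

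NQO1 had 3 transcripts with at least 10% of its sum, NQO1-206 (53.4%), NQO1-202 (20.8%) and NQO1-204 (13.9%), and each was lowest in the library labelled knockdown of ARP1 among the knockdown library and controls of that line. NQO1-204 stood there at 0.373 FPKM, against 5.67 in the control of overexpression and 6.96 in the control of knockdown. GCLM-201 and GCLM-204 carried 62.2% and 37.8% of GCLM and were both lowest in that library. KEAP1-202 carried 80.6% of KEAP1 and KEAP1-201 14.0%. They start 125 and 970 bases upstream of the downstream RefSeq start of KEAP1. The KEAP1 cores printed above thus lie within the span of both transcripts and not before their starts.

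Over the 8 libraries, with the mean of each line taken off, Pearson's r between pairs of the 8 targets ran from 0.191 (HMOX1 and GCLC) to 0.977 (NQO1 and HMOX1). It is given as a description, since all pairs share the same 8 libraries and the genes were chosen on the libraries labelled knockdown, where that of ARP1 was low for every target. It was 0.959 between TXNRD1 and SRXN1, 0.926 between PRDX1 and SRXN1, 0.904 between PRDX1 and GCLM and 0.216 between NQO1 and GCLC. NFE2L2 ran against SRXN1, with r = -0.772. The genes outside the set most like the mean profile of the 8 targets, among 8772 coding genes with a mean of at least 5 FPKM, were GSR (r = 0.991), ACTN1 (0.987), SLC20A1 (0.987), FAM83D (0.986) and PKM (0.986). GSR, glutathione reductase, stood in H929 at 30.8 FPKM with overexpression and 30.3 in the library labelled knockdown, against 30.8 in the control of overexpression and 34.4 in the control of knockdown. Its ARP1 levels were 36.25 and 21.3 FPKM, against 36.8 and 42.7 in the controls, with the library labelled knockdown far below the others.

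A list of 72 other genes of NRF2 control and redox metabolism was set beside the 10, of which 62 passed the filter. In the library labelled knockdown of H929, 1 of the 62 was 1.5-fold or more below both controls (1.82% of all genes) and 3 were above both by as much (2.42% of all genes). In that of ARP1, 12 were below (7.21% of all genes) and 6 were above (7.77% of all genes). The median difference from the mean of the controls was 0.02 (log2) in H929 and -0.25 in ARP1. The 10 genes were chosen on this contrast, so nothing is read from setting their differences against those of the list.

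Among the 11 regulators, RBX1 and DPP3 were below both controls by that margin in ARP1 (7.21% of all genes) and NFE2L1 above both (7.77% of all genes). NFE2L1, a factor related to NRF2, stood in ARP1 at 133 FPKM in the library labelled knockdown, against 70.6 in the control of overexpression and 47.9 in the control of knockdown. DPP3, a peptidase that binds KEAP1, stood there at 15.7 FPKM, against 37.5 and 31.3 in the controls. SQSTM1, the autophagy receptor that also binds KEAP1, was the gene of the list below both controls by that margin in H929, with 81.3 FPKM in the library labelled knockdown, against 137 in the control of overexpression and 124 in the control of knockdown. BACH1, a repressor at the same elements, stood in H929 at 43.1 FPKM in the library labelled knockdown, against 51.3 in the control of overexpression and 90.0 in the control of knockdown.

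Of the 14 genes in the glutathione group, GSR, GLRX and GSTO1 were 1.5-fold or more below both controls in ARP1 (7.21% of all genes). SLC7A11, SLC3A2 and CHAC1 were above both by as much (7.77% of all genes). SLC7A11, the cystine importer, stood at 22.4 FPKM in the library labelled knockdown of H929, against 7.73 in the control of overexpression and 8.80 in the control of knockdown. In ARP1 it stood at 29.3 FPKM, against 3.88 and 11.3 in the controls. CHAC1, which breaks glutathione down, stood at 19.8 FPKM in the library labelled knockdown of H929, against 3.21 in the control of overexpression and 3.59 in the control of knockdown, and in ARP1 at 63.9 FPKM, against 3.90 and 12.4. SLC7A11, CHAC1 and SESN2 are also known as genes of the amino acid stress response. The selenoenzyme GPX4, which reduces lipid peroxides, and the transferase GSTK1 differed by 0.11 and 0.30 (log2) from the mean of the controls in H929 and by 0.12 and -0.33 in ARP1.

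**Figure D5:**
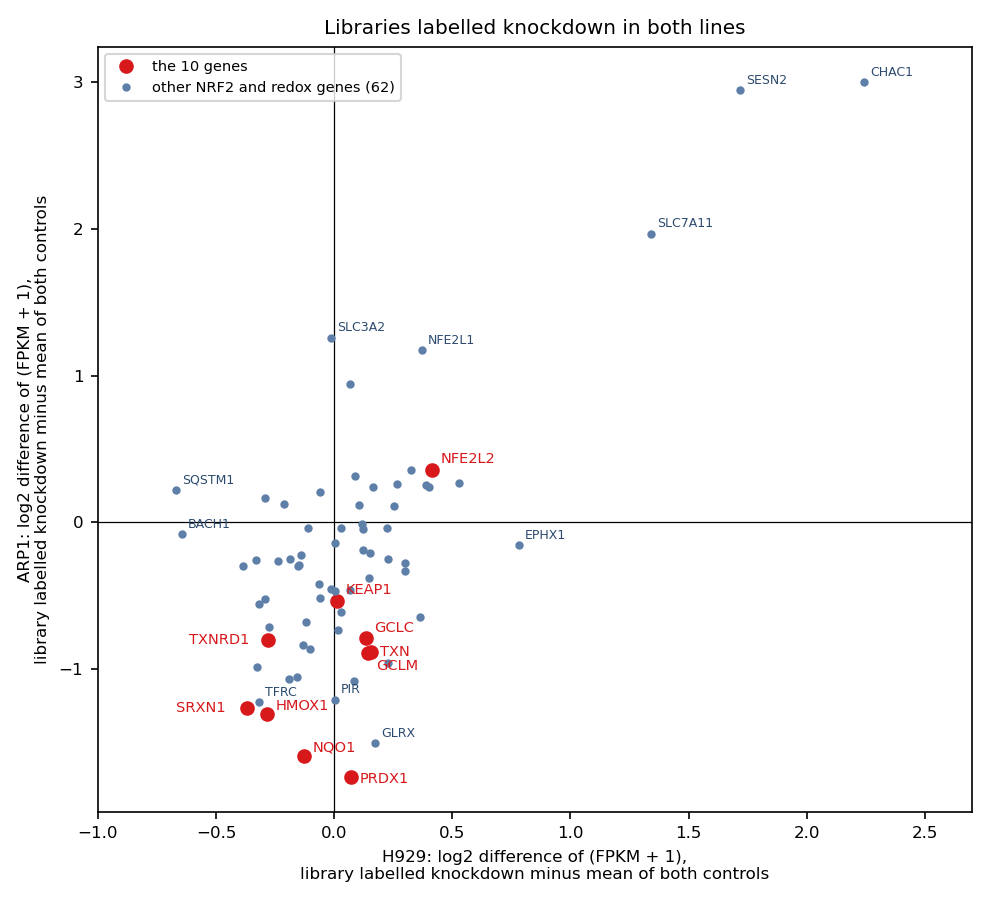
Log2 difference of FPKM + 1 between the library labelled knockdown and the mean of both controls, in H929 (horizontal axis) and in ARP1 (vertical axis), for the 10 genes (large points) and 62 other NRF2 and redox genes (small points), with 1 point per gene. The 8 targets lie between -0.37 and 0.16 in H929 and between -1.73 and -0.79 in ARP1, whereas CHAC1, SESN2 and SLC7A11 lie at the upper right, high in both lines.

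In the thioredoxin and peroxide group, none of 14 genes was 1.5-fold or more below both controls in H929 (1.82% of all genes) or in ARP1 (7.21% of all genes). SESN2, a stress-induced sestrin, stood at 25.9 FPKM in the library labelled knockdown of H929, against 6.57 in the control of overexpression and 7.86 in the control of knockdown, and in ARP1 at 117 FPKM, against 8.57 and 23.6. TXNIP, which binds and inhibits thioredoxin, stood in H929 at 39.8 FPKM, against 31.3 and 45.8 in the same controls, and in ARP1 at 155 FPKM, against 75.9 and 83.9. MSRA, a methionine sulfoxide reductase, differed by 0.53 (log2) from the mean of the controls in H929 and by 0.27 in ARP1.

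In the NADPH group, TKT, a transketolase, differed by 0.17 (log2) from the mean of the controls in H929 and by 0.24 in ARP1. In the iron and haem group, 3 of 8 genes were 1.5-fold or more below both controls in ARP1 (7.21% of all genes). They were TFRC, the transferrin receptor (51.7 FPKM against 132 and 114 in the controls), ABCB6, a porphyrin transporter (2.60 FPKM against 5.81 and 7.33), and BLVRA, the biliverdin reductase that acts after HMOX1 (22.8 FPKM against 37.6 and 61.9). In the group of detoxification and export, NQO2, OSGIN1 and PIR were 1.5-fold or more below both controls in ARP1 (7.21% of all genes). None of its 10 genes was above (7.77% of all genes). CBR1, a carbonyl reductase, differed by -0.27 in H929 and -0.71 in ARP1, and PIR, pirin, by 0.00 and -1.21.

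None of the 62 genes was called with CHEK1 overexpression in limma. Between the lines, 15 of the 62 were called higher in H929 (13.4% of all genes) and 8 lower (13.7% of all genes). FTL, the ferritin light chain, was among the higher ones, with a log2 fold change of 1.19 (limma adjusted p = 0.00454), as were ABCB6 with 1.29 (limma adjusted p = 0.00581), EPHX1, a microsomal epoxide hydrolase, with 1.41 (limma adjusted p = 0.0199), and ABCC4, an export pump, with 0.90 (limma adjusted p = 0.00607). The direction was that of HMOX1, SRXN1 and TXN. TXNIP was lower in H929, with a log2 fold change of -1.30 (limma adjusted p = 0.00398), as were CHAC1 with -1.12 (limma adjusted p = 0.0176) and NFE2L1 with -0.78 (limma adjusted p = 0.0187).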

How the data were processed

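The deposited data are 1 table of FPKM per transcript, made by the authors for the 8 libraries. Its name calls the values means, without saying of what. Per the submitters' processing notes, the tools included HISAT2 2.0, StringTie 1.3.0 and Bowtie 0.12.2. The build in those notes is mm8, a mouse build, whereas the identifiers are human, and no human build is given there. Read depth is unknown, so counting error cannot be given and precision rests on the spread between libraries. Each of the 8 columns matched 1 sample by its title, with 0 left over.

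Of 88209 transcripts, 87707 matched a gene of GENCODE release 29 (GRCh38) and 502 did not and were not used. Levels were summed over a gene's transcripts. A gene was kept when 2 or more libraries reached an FPKM of 1. SOD2, on the list of other redox genes, carries 2 gene identifiers in that release and was left out. FPKM is not a count, so log2(FPKM + 1) was fitted in limma 3.58.1 (R 4.3.3) with a variance trend, and fold changes on that scale understate the change of low genes. Genotype and cell line were terms, with 3 residual and 3.7 prior degrees of freedom. The pairing is that of the labels, which give every genotype once in each line, and the line was the block. Tests were two-sided, with Benjamini-Hochberg adjustment over all 14905 genes and a threshold of 0.05. For overexpression the lines stand as replicates. Between the lines, the libraries of a line are its different genotypes, so no line has repeats of the same state. In either contrast a p-value reflects only the spread between these samples, which may be technical. The fit was checked on simulated data.

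The members, the list of other genes and the comparisons were chosen with earlier results of these data known. All members were named, with the transcripts that held at least 10% of a member's sum. From the other genes with a mean FPKM of at least 5, each role group gave the 2 largest knockdown differences, the largest overexpression fold change and up to 2 called line differences, and not all of these are printed. A gene of that list is not reported here. RBX1, GSR, GLRX, GSTO1, BLVRA, NQO2, OSGIN1 and SLC3A2 passed a 1.5-fold difference, and were named after their values were known. Alternatives were a pseudocount of 0.1, other filters, scalings, transcript sums and variance settings, no block, the other control and leaving out each library. Promoter sequences are RefSeq's, on GRCh38.p14. Genes with overlapping genes or near-identical copies are uncertain: MMACHC overlaps PRDX1 on the opposite strand, EID3 overlaps TXNRD1, and pseudogenes of PRDX1 and TXN are not rows of the table.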

Additional observations from a re-analysis of the deposited data

Results flagged for a closer look

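For 3 values, both lines moved apart: in H929 a library lay above both controls and in ARP1 below both, or the reverse. The share of all genes with such opposite sides was not counted, so nothing is read from the number of values. For the libraries labelled knockdown, 33.1% of all genes were above both controls in H929, and 39.4% were below both in ARP1. For TXN, the library labelled knockdown was above both controls in H929 and below both in ARP1, and its difference from the mean of the controls was higher in H929 than in ARP1 by 1.04 (log2 of FPKM + 1). GCLC had the same pattern, higher in H929 by 0.92. For TXNRD1, the overexpression library was above both controls in H929 and below both in ARP1, a difference of 0.24. In ARP1 it differed from the control of overexpression by only -0.035 (log2). Each rests on 1 library per line and genotype, and the difference between the lines was not tested.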

How the results depend on the processing

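The limits are 1 library per line and genotype, an unknown depth and the many short transcripts of the table, and where a value changed below, the cause was not tested. With overexpression, the call of 1 gene became 2 with no filter, 0 when transcripts below 300 nt were dropped, 0 over coding genes only, 0 against the control of knockdown, and 1 to 3 when each library was left out. None of the 10 genes was called under any of these settings. Against the control of knockdown, the fold change turned round for KEAP1 (0.015), TXN (-0.27), TXNRD1 (-0.08), SRXN1 (-0.22) and GCLM (-0.22). When each library was left out in turn, those of NQO1 ran from -0.80 to 0.037, HMOX1 from -0.62 to 0.086, PRDX1 from -0.50 to 0.365, TXNRD1 from -0.029 to 0.13, SRXN1 from -0.10 to 0.28 and GCLM from -0.15 to 0.64. Between the lines, 1830 to 4039 genes were called when each library was left out. The line fold change then ran from -0.065 to 0.49 for NQO1, -0.43 to 0.26 for PRDX1 and -0.10 to 0.22 for GCLC. Over all alternatives the limma adjusted p ran from 0.00382 to 0.0399 for HMOX1 and from 0.00375 to 0.0411 for SRXN1. TXNRD1 was called with libraries scaled to the same total (limma adjusted p = 0.0249), with FPKM weighted by length (0.0441) and with protein-coding genes alone (0.0473). Without the replicate block, 1 gene was called with overexpression and 3173 between the lines, and no call among the 10 genes changed. Members above both controls in both overexpression libraries numbered 2 with median-ratio scaling, 2 with the same total, 2 with weighting by length, 0 with the highest transcript alone, and 1 to 3 when each library was left out. Members below both in both libraries labelled knockdown numbered 2 to 9 when each library was left out. In both of these counts, a library left out takes its condition with it. The 9, without the library labelled knockdown of H929, are the members below both controls in ARP1 alone. The 6, without the H929 control of overexpression, were held against 1 control in H929. The knockdown difference of PRDX1, averaged over lines, ran from -1.73 to 0.071 when each library was left out, 0.071 being H929 alone. That of NFE2L2 was 0.25 with weighting by length and -0.10 with the highest transcript alone.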

Other observations

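The genes outside the set whose profile was most like that of the targets include ones not on the list of other redox genes, described here as values. The targets were chosen on the libraries labelled knockdown, and that of ARP1 was low for all of them. Genes low in that library thus come out as alike. ACTN1, an actinin that crosslinks actin, stood in H929 at 92.2 FPKM with overexpression and 97.0 in the library labelled knockdown, against 89.2 in the control of overexpression and 104 in the control of knockdown. In ARP1 it stood at 40.7 and 17.9 FPKM, against 42.6 and 49.8 in the controls. SLC20A1, a phosphate importer, stood in H929 at 32.1 and 33.0 FPKM, against 31.9 and 35.8 in the controls, and in ARP1 at 22.8 and 7.91 FPKM, against 21.4 and 28.7. PKM, the pyruvate kinase of most proliferating cells, stood in H929 at 1243 and 1176 FPKM, against 1204 and 1357 in the controls, and in ARP1 at 1258 and 889 FPKM, against 1249 and 1359. The library labelled knockdown was the lowest of the 4 in H929 for PKM alone of these 3 genes, and in ARP1 for all 3. Several redox genes could not be compared: GSTP1 and ME1 were listed at 0 in all 8 libraries, and GPX1 averaged 0.673 FPKM.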
